A study of Mus musculus with 16 samples.

Results

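The mitochondrial genome transcripts are the genes whose mouse symbol starts with mt-. All 37 were found among the 54838 genes of the deposited count table: 13 protein-coding genes, 2 ribosomal RNA (rRNA) genes and 22 transfer RNA (tRNA) genes. In total, 31 of them passed the filter on low counts and were tested, namely the 13 protein-coding genes, both rRNA genes and 16 tRNA genes. The other 6, mt-Tf, mt-Tv, mt-Ts1, mt-Td, mt-Ts2 and mt-Tt, had 1 to 5 counts in every library and are described by their counts only. The libraries hold RNA of liver tumor and of the liver tissue around the tumor (peri-tumor) from 8 mice, all labelled HrasG12V, which is an activated form of the Ras oncogene. The 4 groups are control peri-tumor, control tumor, TCM peri-tumor and TCM tumor tissue, with 4 libraries in each, and animal codes tie the tumor and peri-tumor library of each mouse together. TCM stands for the traditional Chinese medicine that 4 of the mice received, and the titles add 3 months, without saying whether that is an age or a length of treatment. The protocol speaks of Ras-Tg and DEN-induced mice for all 4 groups alike, so whether these mice were given DEN, a liver carcinogen, is not stated. The sources used here give neither the promoter of the transgene nor the makeup or dose of the medicine.

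Mitochondria keep a small circular genome of their own, and all of the proteins it encodes are membrane subunits of the respiratory chain and of ATP synthase. Both strands are copied into long precursor RNAs. In most places tRNA genes sit between the other genes, and cutting out the tRNAs releases the messenger RNAs and rRNAs, so many of these genes are made together and differ later through processing and decay. The remaining subunits of the same complexes, and every factor that copies, cuts, translates and protects mitochondrial RNA, come from nuclear genes. Hepatocytes are rich in mitochondria.

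Positions below are those of the GENCODE M21 annotation on build GRCm38. On this annotation 28 of the 37 genes lie on the plus strand, among them 12 of the protein-coding genes and both rRNA genes, and 9 lie on the minus strand, namely mt-Nd6 and 8 tRNA genes. Gene ends overlap in places. mt-Nd5 and mt-Nd6 share 14 bases on opposite strands, and the sources used here do not say whether strand was used in counting, so reads there, and reads of any gene opposite another transcript, cannot be told apart. mt-Atp8 and mt-Atp6 share 43 bases on the same strand. The sequence of mt-Atp8 (chrM:7766-7969, plus strand), the short accessory subunit of ATP synthase, is shown because its last bases open mt-Atp6 (chrM:7927-8607), whose counts stand apart in 3 libraries. Capitals mark the 43 shared bases in each line.
mt-Atp8: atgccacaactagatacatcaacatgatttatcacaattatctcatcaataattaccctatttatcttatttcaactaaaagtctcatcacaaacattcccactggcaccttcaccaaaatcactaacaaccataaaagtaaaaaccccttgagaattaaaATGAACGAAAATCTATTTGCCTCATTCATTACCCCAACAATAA
mt-Atp6 start: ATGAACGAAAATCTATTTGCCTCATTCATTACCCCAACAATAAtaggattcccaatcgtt
Gm10925 start: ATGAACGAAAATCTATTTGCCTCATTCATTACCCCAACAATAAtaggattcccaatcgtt

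The last of these lines is not mitochondrial. Gm10925 (chr1:24614592-24614651 on the minus strand for the 60 bases shown) is 1 of 7 annotated nuclear genes on chromosome 1, between 24611535 and 24616197, in which at least 50% of all 50-base words also occur in an mt- gene. Such nuclear copies of mitochondrial DNA arose when pieces of the mitochondrial genome were inserted into a chromosome. Gm28439 (a copy from mt-Nd4, 876 bases), Gm10222 (mt-Nd4l, 294), Gm28437 (mt-Co3, 783), Gm10925 (mt-Atp6, 678) and Gm28661 (mt-Co2, 681) have 0 mismatches to their mt- gene. Gm28438 (mt-Nd3, 345 bases) differs from its gene by 1 base, T3C, and Gm29216 (mt-Co1, 492 bases) by 6 bases, T1056A, C1057T, A1059G, A1060G, C1062A and A1066T. Each substitution gives the base of the mt- gene, its position counted from 1 at the first base of the mt- gene, and the base of the copy. The stretches that hold these differences are shown 5′ to 3′ because all other aligned bases are the same, so that a short read elsewhere cannot be placed by its sequence. Capitals mark the bases that differ, at chrM:9459-9498 against chr1:24613080-24613119 and at chrM:6381-6420 against chr1:24616158-24616197.
mt-Nd3 window: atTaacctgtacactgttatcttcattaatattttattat
Gm28438 window: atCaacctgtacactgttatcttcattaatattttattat
mt-Co1 window: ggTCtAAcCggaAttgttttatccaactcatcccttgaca
Gm29216 window: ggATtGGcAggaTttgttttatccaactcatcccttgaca

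Library totals ran from 13947483 to 16194224 counts. CPM below are counts scaled to a common library size with TMM factors (0.834 to 1.12). FPKM are the authors' values per length, for setting levels of different genes side by side. For genes with a nuclear copy they cover only the reads listed under the gene. A 95% Wilson interval on the mt- share of a library is at most 0.0129 percentage points to either side, and it covers counting error only. Animal codes show separate mice within a group, so the spread within a group is that between mice. The reported fit has no mouse block. Its p-values between tissues and for the difference of tumor effects therefore do not use the pairing of libraries by mouse.

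Together the 37 genes took a smaller share of the library counts in tumors than around them. The share was 5.22%, 4.49%, 4.70% and 4.51% in control peri-tumor tissue of mice 1 to 4, and 2.66%, 2.48%, 2.46% and 3.61% in control tumors. In TCM mice 1 to 4 it was 6.50%, 5.77%, 7.46% and 4.86% around the tumor and 3.69%, 4.22%, 2.99% and 2.87% in the tumor. Every tumor library lay below every peri-tumor library of the same treatment. The group means were 4.73 ± 0.342% (SD, n = 4) and 2.80 ± 0.546% in control mice, and 6.15 ± 1.10% and 3.44 ± 0.631% in TCM mice. The mean of the tumors was thus 0.592 times that of the peri-tumor tissue in control mice and 0.560 times in TCM mice. Within single mice the peri-tumor share was 1.25 to 1.96 times the tumor share in control mice and 1.37 to 2.49 times in TCM mice, with the smallest ratio in control mouse 4. Its tumor library stands apart from the other 3, and without it the control tumor mean was 2.53%. Between treatments the libraries overlapped in both tissues, although the TCM means were 1.30 times (peri-tumor) and 1.23 times (tumor) the control means. No p is given for a sum over the genes. In bulk tissue, fewer cells of a type and less RNA per cell cannot be told apart.

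The 3 classes took very unequal parts and did not move alike. Protein-coding genes made up 4.65 ± 0.336%, 2.70 ± 0.540%, 6.01 ± 1.06% and 3.34 ± 0.619% of counts in control peri-tumor, control tumor, TCM peri-tumor and TCM tumor tissue (SD, n = 4). mt-Co1, the catalytic core of cytochrome c oxidase, alone held 1.78 ± 0.193%, 0.965 ± 0.154%, 2.33 ± 0.359% and 1.22 ± 0.266%. The tRNA genes held 0.0145 ± 0.00178%, 0.00843 ± 0.00139%, 0.0187 ± 0.00296% and 0.0107 ± 0.00292%, so that their tumor means were 0.580 and 0.571 times the peri-tumor means, close to the 0.581 and 0.555 of the protein-coding genes. The rRNA genes held 0.0686 ± 0.0140%, 0.0917 ± 0.0165%, 0.119 ± 0.0430% and 0.0977 ± 0.0158%, and their libraries overlapped in each of the 4 comparisons.

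**Figure D1:**
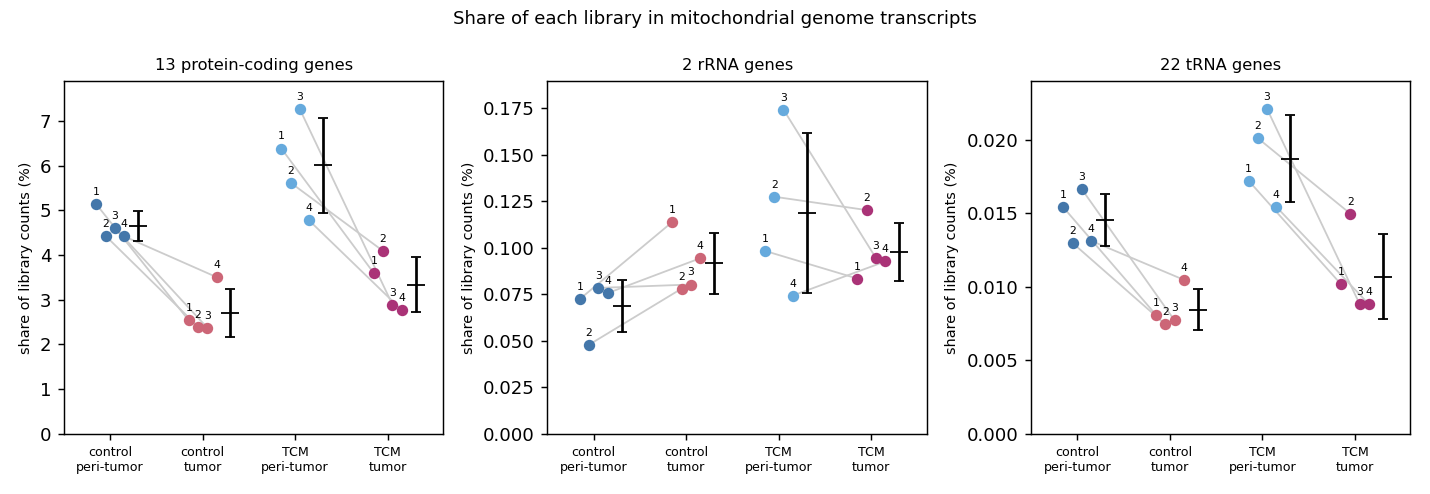
Share of each library's counts (%) in the protein-coding, rRNA and tRNA genes of the mitochondrial genome, 1 point per library labelled with the mouse number within its treatment. Grey lines join the tissues of a mouse, and black marks give the mean and SD of 4 libraries. All tumor points lie below the peri-tumor points of the same treatment for protein-coding and tRNA genes, while the rRNA points overlap.

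The ratio of rRNA to protein-coding counts was higher in tumors of control mice, while in TCM mice its ranges overlapped between tissues. For every 100 protein-coding counts there were 1.48 ± 0.298 rRNA counts in control peri-tumor tissue and 3.46 ± 0.753 in control tumors, with ranges of 1.08 to 1.71 and 2.69 to 4.49 that did not overlap. In TCM mice the values were 1.94 ± 0.457 (1.54 to 2.40) around the tumor and 2.97 ± 0.465 (2.32 to 3.34) in the tumor, and these ranges overlapped. tRNA counts per 100 protein-coding counts were 0.312 ± 0.0322, 0.313 ± 0.0114, 0.314 ± 0.0368 and 0.318 ± 0.0351 in control peri-tumor, control tumor, TCM peri-tumor and TCM tumor tissue, differences smaller than the spread within each group. The libraries were made with a kit named for mRNA, so the rRNA and tRNA counts describe what such a library holds, not the amount of these RNAs in a cell.

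Per length, mt-Co1 had the highest level in all 4 groups. In control peri-tumor tissue it reached 11519 ± 1249 FPKM (SD, n = 4), followed by mt-Cytb, the central subunit of complex III, at 4942 ± 345 FPKM. mt-Atp6, the proton channel subunit of ATP synthase, came next at 4090 ± 461 FPKM and mt-Nd1, a core subunit of complex I, at 3972 ± 277 FPKM, and these neighbours did not differ beyond their SD. mt-Co2, mt-Nd2 and mt-Co3 stood together at 3423 ± 323, 3342 ± 472 and 3329 ± 151 FPKM. Below them were mt-Nd4 at 2559 ± 295, mt-Atp8 at 2002 ± 211, mt-Nd4l at 1789 ± 203, mt-Nd5 at 1457 ± 87.1, mt-Nd6 at 1208 ± 51.1 and mt-Nd3 at 774 ± 99.7 FPKM. mt-Nd6, the one protein-coding gene of the minus strand, and mt-Nd3 were the last of the order as listed in every group. The counts of mt-Nd3 were 0.859 to 0.965 times those of its nuclear copy, which are left out here. In tumors mt-Nd1 moved up to rank 2 as listed, with 2983 ± 548 FPKM in control and 4305 ± 345 FPKM in TCM mice, against 2443 ± 567 and 3266 ± 885 FPKM for mt-Cytb. The order leaves out the counts listed under the nuclear copies. Over the 16 libraries the median ratio of gene to copy counts was 0.922 for mt-Atp6, 0.915 for mt-Co3 and 0.960 for mt-Co2. It was 0.936 for mt-Nd4l, 0.910 for mt-Nd3, 2.54 for mt-Nd4 and 6.62 for mt-Co1. The sources used here do not say how shared reads were divided, and the ranks of these genes and their neighbours depend on it.

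In mean FPKM the rRNA genes lay below every messenger RNA in all 4 groups, but in tumors not far below mt-Nd3. There mt-Rnr1 had 383 ± 75.5 FPKM in control and 465 ± 54.2 FPKM in TCM mice, and mt-Nd3 had 680 ± 169 and 697 ± 185 FPKM. mt-Rnr1, the RNA of the small mitochondrial ribosomal subunit, had 325 ± 52.9 FPKM and mt-Rnr2, that of the large subunit, 237 ± 58.2 FPKM in control peri-tumor tissue. Among tRNA genes the listed FPKM ran over almost 3 orders of magnitude. The low end of that span is set by genes at 1 count per library and is not a measured level. The highest was mt-Te, the tRNA for glutamate next to mt-Nd6 on the minus strand, at 674 ± 82.9 FPKM, and then came mt-Tc (cysteine) at 253 ± 30.8 and mt-Tn (asparagine) at 207 ± 23.5 FPKM. mt-Tf (phenylalanine) and mt-Ts2 (serine) were listed at exactly 1 count in all 16 libraries, a value that 142 genes of the table share, and these counts carry no information on a difference.

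RNA of cell type markers differed between tumor and peri-tumor tissue, which does not show whether cell numbers or RNA per cell moved. Counts of called markers are to be read against all genes tested. Of these, 22% were called higher and 21.2% lower in control tumors, and 17.3% and 15.6% in TCM tumors. The hepatocyte counts are near these shares. Hepatocyte markers (8 genes, summed) had 71664 to 108962 CPM in control peri-tumor and 108759 to 151433 CPM in control tumor libraries, and 97094 to 145359 and 115198 to 182491 CPM in TCM mice. Singly, 2 of the 8 rose and 2 fell in control tumors (median log2 difference -0.24), and 1 rose and 2 fell in TCM tumors (median -0.04), so the median and the sum differ in sign. Kupffer cell markers were lower in tumors (879 to 1335 against 143 to 239 CPM in control mice, 532 to 615 against 96.7 to 317 CPM in TCM mice), with 8 and 5 of 8 genes called lower. Markers of recruited macrophages were higher (24.0 to 31.9 against 121 to 201 CPM, and 23.2 to 31.6 against 77.3 to 119 CPM), with 8 and 6 of 8 called higher. Cholangiocyte markers were higher too (a mean of 62.7 ± 28.4 against 937 to 2262 CPM in control mice, and 47.0 to 76.7 against 436 to 1270 CPM in TCM mice), with 3 of 6 tested genes called higher in each and 1 called lower in control mice. Stellate cell and fibroblast markers had a mean of 152 ± 38.7 CPM around control tumors and 287 to 560 CPM within them, and in TCM mice 159 to 201 and 235 to 333 CPM, with 5 of 8 genes called higher in each and 1 (control) and 2 (TCM) called lower. Endothelial markers were mixed, with 2 of 8 higher and 2 lower in control tumors, and 3 higher and 1 lower in TCM tumors. Erythroid markers were lower for 3 of 6 tested genes in control and 1 in TCM tumors, with 0 higher. T and NK cell markers had 0 of 8 called in either treatment. For B and plasma cells 0 of 6 were called in control tumors and 2 were higher in TCM tumors. For neutrophils 1 of 3 was higher in control tumors and 0 were called in TCM tumors. Between treatments, 5 of 8 Kupffer cell markers were lower around TCM tumors than around control tumors, and 3 of 8 recruited macrophage markers were lower in TCM than in control tumors. Over all genes, 7.36% were called lower with TCM around the tumor and 2.72% in tumors. The part of these cell types in the mt- results was not tested. Skeletal muscle markers, of a tissue also rich in mitochondria, summed to at most 1.06 CPM in any library, with Mb and Myl1 at 0 throughout.

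Tumors of control mice had less RNA of nearly every mitochondrial messenger. Of the 13 protein-coding genes, 0 rose and 11 fell (adjusted p 2.42e-04 to 0.0190 among those called, edgeR quasi-likelihood test, Benjamini-Hochberg over 14865 genes). Their median log2 difference was -0.86, against 0.00 over all genes tested. Across all genes tested 43.2% were called in this comparison, 21.2% lower and 22% higher. For 11 of the 13 every tumor library lay below every peri-tumor library, a pattern that 18.8% of all genes showed, while 20% showed the opposite one.

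mt-Cytb fell most among the protein-coding genes. Its 4 control peri-tumor libraries had 6199, 4863, 5920 and 5935 CPM, and the control tumors had 2544, 2465, 2102 and 3346 CPM. No tumor reached the lowest peri-tumor value, and the tumor of mouse 4 was the highest of the 4. The log2 difference was -1.13 ± 0.22 (SE), a level 2.19-fold lower in tumors (adjusted p = 6.73e-04, edgeR, Benjamini-Hochberg).

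mt-Co1 had 20957, 17249, 16792 and 16966 CPM in control peri-tumor libraries and 8929, 8336, 8185 and 10676 CPM in control tumors, 1.99-fold lower (log2 -0.99 ± 0.20, adjusted p = 9.43e-04, edgeR, Benjamini-Hochberg). The other cytochrome c oxidase subunits fell too, mt-Co2 by 0.86 and mt-Co3 by 0.76 on the log2 scale. All 3 subunits of this complex were therefore called, and none of their libraries overlapped between the tissues. Of all genes, 21.2% were called lower, and for 18.8% every tumor library lay below.

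Of the 7 complex I subunits, which pass electrons from NADH into the chain, 6 fell in control tumors, where 21.2% of all genes fell. Their median log2 difference was -0.81. The falls were 0.98 for mt-Nd2, 0.89 for mt-Nd4, 0.87 for mt-Nd6, 0.81 for mt-Nd5, 0.73 for mt-Nd4l and 0.53 for mt-Nd1 on the log2 scale. mt-Nd4l was no longer called without control peri-tumor library 1 (log2 -0.67, adjusted p = 0.0511, edgeR, Benjamini-Hochberg) or without control tumor 1 (-0.67, adjusted p = 0.0504). The seventh, mt-Nd3, was not called (log2 -0.30 ± 0.21, adjusted p = 0.261, edgeR, Benjamini-Hochberg). Its control peri-tumor libraries had 298, 227, 311 and 255 CPM and its control tumors 207, 203, 184 and 290 CPM, which overlap through the tumor of mouse 4.

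mt-Atp8 had 470, 376, 429 and 376 CPM around control tumors and 188, 174, 178 and 241 CPM within them, with no overlap. This was a 2.11-fold lower level (log2 -1.08 ± 0.19, adjusted p = 2.42e-04, edgeR, Benjamini-Hochberg). Its partner mt-Atp6 had 3222, 2451, 2995 and 2606 CPM against 1774, 1619, 1483 and 2143 CPM. These groups did not overlap either, but the gene was not called (log2 -0.68 ± 0.50, adjusted p = 0.287, edgeR, Benjamini-Hochberg). The error is larger than for the other genes because the fit estimates the spread from all 16 libraries, 3 of which, all of TCM mice, had little mt-Atp6. With those 3 libraries left out the log2 difference was -0.70 and the gene was called (adjusted p = 0.0106, edgeR, Benjamini-Hochberg), an alternative chosen after seeing the data.

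In tumors of TCM mice the messengers were lower as well. Here 0 of 13 rose and 12 fell (adjusted p 4.43e-04 to 0.0228, edgeR, Benjamini-Hochberg), with a median log2 difference of -1.02, while 32.9% of all genes tested were called, 15.6% lower and 17.3% higher, and their median was 0.00. For 11 of the 13 the tissues did not overlap, against 16.6% of all genes with tumors below. mt-Cytb went from 8518, 7139, 10086 and 5671 CPM around the tumor to 3735, 4859, 3485 and 2530 CPM within it (log2 -1.10 ± 0.22). mt-Co1 fell by 1.09 and mt-Nd3 by 1.07 on the log2 scale.

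mt-Nd1 was the gene not called in TCM mice. It had 5262, 4423, 7095 and 4672 CPM around the tumor and 3929, 4382, 3859 and 3945 CPM in it. The groups touched without overlapping, 4423 against 4382 CPM, with a log2 difference of -0.41 ± 0.16 (adjusted p = 0.0646, edgeR, Benjamini-Hochberg). It was called in 3 of 28 settings: by DESeq2 (-0.41, Benjamini-Hochberg adjusted p = 0.0173), without both libraries of control mouse 4 (-0.40, adjusted p = 0.0462) and without TCM peri-tumor library 2 (-0.50, adjusted p = 0.0436), the last pair by edgeR. mt-Nd1 also had the smallest fall among the called genes of control mice. As a result its part of all mt- messenger counts was higher in tumors, 10.6 ± 0.216% against 8.18 ± 0.0594% in control mice and 12.6 ± 1.57% against 8.28 ± 0.810% in TCM mice (SD, n = 4), with no overlap in either treatment. The part of mt-Cytb was 12.2 ± 0.621% around control tumors and 10.3 ± 0.519% within them.

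**Figure D2:**
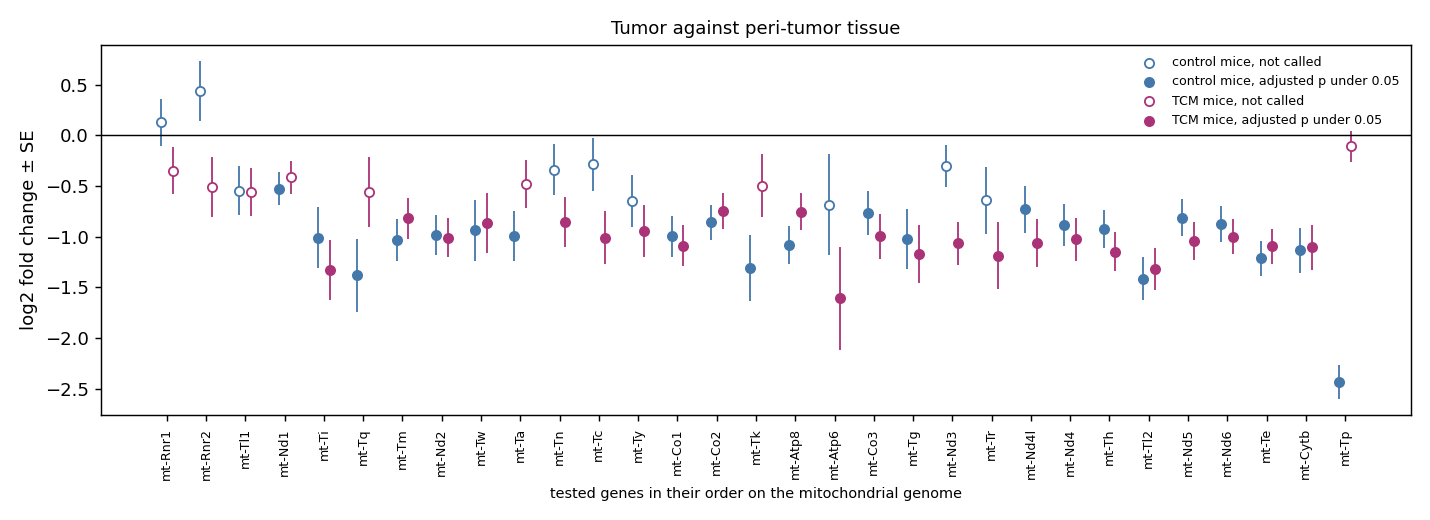
Log2 fold change, tumor over peri-tumor tissue, with its standard error for the 31 tested genes in their order along the mitochondrial genome, for control and TCM mice. Filled points have an adjusted p under 0.05. Protein-coding genes sit between -1.61 and -0.30, the rRNA genes are at 0.13 and 0.44 in control mice, and mt-Tp is at -2.43 in control mice and -0.11 in TCM mice.

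Neither rRNA gene passed the test between tumor and peri-tumor tissue. mt-Rnr2 had 393, 232, 452 and 453 CPM in control peri-tumor libraries and 655, 444, 461 and 510 CPM in control tumors. Peri-tumor libraries 3 and 4 overlap tumor library 2, and the log2 difference was 0.44 ± 0.29 (adjusted p = 0.244, edgeR, Benjamini-Hochberg). In TCM mice mt-Rnr2 went from 572, 753, 1242 and 414 CPM to 399, 667, 547 and 480 CPM (log2 -0.51 ± 0.29, adjusted p = 0.198, edgeR, Benjamini-Hochberg). mt-Rnr1 was at 0.13 ± 0.23 in control mice (adjusted p = 0.694, edgeR, Benjamini-Hochberg) and at -0.35 ± 0.23 in TCM mice (adjusted p = 0.272). Its sign in control mice turned without control peri-tumor library 2 (-0.03) and without control tumor 1 (-0.05). The ratio of mt-Rnr2 to mt-Rnr1 counts was 1.20 ± 0.145 around control tumors and 1.51 ± 0.0910 within them, and in TCM mice it was 1.31 ± 0.137 around and 1.19 ± 0.113 within (SD, n = 4).

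Most of the tRNA genes that could be tested were lower in tumors, as the messengers were. Of the 16, 0 rose and 11 fell in control mice (median log2 difference -0.999), and 0 rose and 11 fell in TCM mice (median -0.91), where 21.2% and 15.6% of all genes tested fell. The 11 were not all the same genes in both treatments. Since the filter kept only tRNA genes with enough counts somewhere, these counts say nothing of the 6 others. mt-Tq, mt-Tk, mt-Tg and mt-Tr, at 3 to 23 counts, passed the filter mainly through their peri-tumor libraries, so that a fall was favoured for them. Among the 11 falls, mt-Tq, mt-Tk and mt-Tg are such genes in control mice, and mt-Tg and mt-Tr in TCM mice. mt-Te had 49.9, 38.5, 54.1 and 46.1 CPM in control peri-tumor libraries and 18.3, 19.7, 16.4 and 26.9 CPM in control tumors, a 2.32-fold difference (log2 -1.21 ± 0.17, adjusted p = 4.77e-05, edgeR, Benjamini-Hochberg). In TCM mice it had 68.2, 56.3, 69.6 and 48.4 CPM against 26.7, 36.1, 24.0 and 26.5 CPM (log2 -1.10 ± 0.17, adjusted p = 1.87e-04, edgeR, Benjamini-Hochberg). The tissues did not overlap in either treatment.

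mt-Te lies directly beside mt-Nd6 on the minus strand. mt-Nd6 went with mt-Nd5, its overlapping neighbour on the other strand: the ratio of their counts was 0.213 to 0.250 over all 16 libraries. For 1000 counts of mt-Nd5 there were 12.8 to 22.0 counts of mt-Te. Split by strand, 4 of 7 tested minus-strand tRNA genes and 7 of 9 plus-strand ones fell in control tumors. In TCM tumors 4 of 7 and 7 of 9 fell too, but in part other genes. Both are to be read against the same 21.2% and 15.6% of all genes. On the minus strand mt-Tq, mt-Ta, mt-Te and mt-Tp fell in control mice, and mt-Tn, mt-Tc, mt-Ty and mt-Te in TCM mice. On the plus strand mt-Tk was called only in control mice and mt-Tr only in TCM mice. The limit set by the filter holds here too, for mt-Tq on the minus strand and for mt-Tk, mt-Tg and mt-Tr on the plus strand. mt-Tl2, the second leucine tRNA, showed falls of 1.41 and 1.32 on the log2 scale in control and TCM mice, while mt-Tl1, the leucine tRNA between mt-Rnr2 and mt-Nd1, was not called in either (log2 -0.55, adjusted p = 0.0804, and -0.56, adjusted p = 0.0857, edgeR, Benjamini-Hochberg). mt-Tl1 was called in control mice without control tumor 4 (-0.74, adjusted p = 0.0275, edgeR, Benjamini-Hochberg) and, without TCM tumor 2, in control mice (adjusted p = 0.0358) and in TCM mice (-0.81, adjusted p = 0.0132).

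mt-Tp, the tRNA for proline (ENSMUSG00000064372), behaved unlike the rest. It is the last annotated gene before the non-coding control region, on the minus strand at chrM:15356-15422, and its 67 bases are shown because the gene stands out in what follows.
mt-Tp: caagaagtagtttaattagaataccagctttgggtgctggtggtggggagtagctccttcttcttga

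Its counts were 128, 132, 145 and 137 in control peri-tumor libraries and 31, 18, 28 and 24 in control tumors. In TCM mice they were 97, 93, 80 and 93 around the tumor and 92, 79, 97 and 79 within it. Control tumors thus lie far below all other libraries, and the TCM tumors lie among the TCM peri-tumor libraries. The log2 difference between tumor and peri-tumor tissue was -2.43 ± 0.17 in control mice, 5.39-fold lower (adjusted p = 6.02e-08, edgeR, Benjamini-Hochberg), and -0.11 ± 0.15 in TCM mice (adjusted p = 0.619). The difference between these differences was 2.32 ± 0.22 (adjusted p = 1.49e-04, edgeR, Benjamini-Hochberg). By p it ranked 2 among 14865 genes, after Cox7c. No other mt- gene was called for this difference, while over all genes 0.706% were called in that direction and 0.404% in the other.

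Set against the control tumors, mt-Tp was 3.53-fold higher in TCM tumors (log2 1.82 ± 0.17, adjusted p = 1.35e-04, edgeR, Benjamini-Hochberg), the lowest p of all 14865 genes in that comparison. Around the tumor it was lower in TCM than in control mice (log2 -0.50 ± 0.15, adjusted p = 0.0384, edgeR, Benjamini-Hochberg), and the 4 and 4 libraries did not overlap. That call was lost on leaving out any of the 8 peri-tumor libraries, with adjusted p (edgeR, Benjamini-Hochberg) from 0.0582 to 0.0936, whereas the calls in control tumors, between tumors and for the difference held in each alternative run. For 1000 counts of mt-Cytb, the nearest protein-coding gene, there were 1.53 ± 0.148, 0.640 ± 0.206, 0.819 ± 0.190 and 1.66 ± 0.515 counts of mt-Tp in control peri-tumor, control tumor, TCM peri-tumor and TCM tumor tissue (SD, n = 4). The plus-strand neighbour mt-Tt had 1 to 4 counts. Whether the reads come from finished tRNA, from uncut precursor or from the other strand is not shown by the counts.

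**Figure D3:**
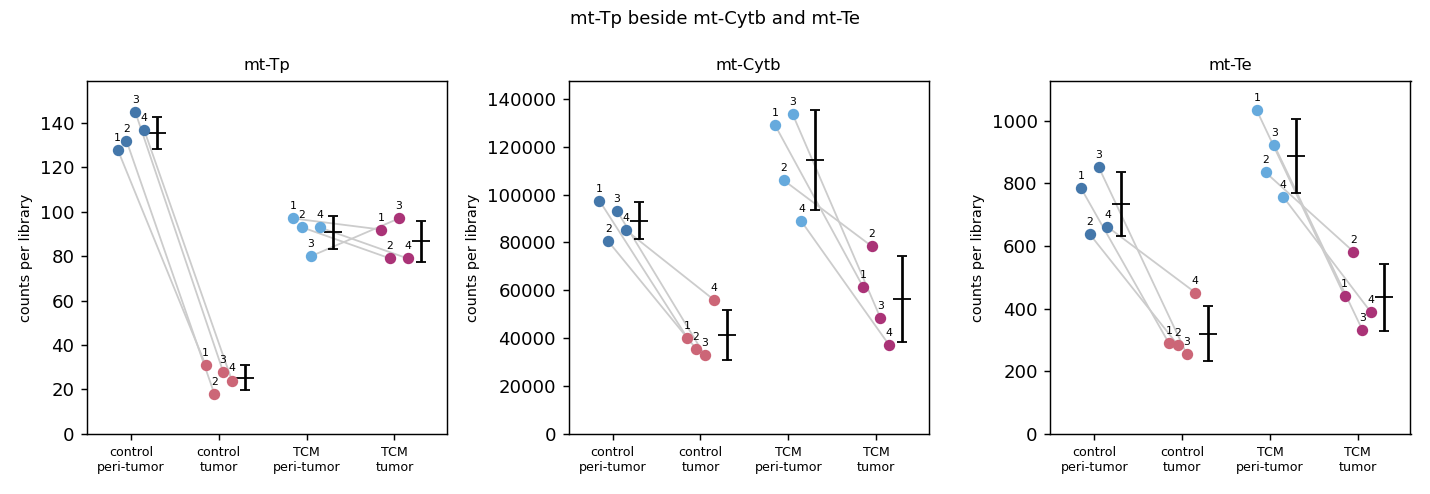
Counts per library of mt-Tp, mt-Cytb and mt-Te, 1 point per library with its mouse number, grey lines joining the tissues of a mouse and black marks for mean and SD of 4. mt-Tp has 18 to 31 counts in control tumors and 79 to 145 in the other libraries, while mt-Cytb and mt-Te are low in the tumors of both treatments.

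Cox7c, a small nuclear subunit of cytochrome c oxidase, was the only gene ahead of mt-Tp for the difference, and it too was lowest in control tumors. It had 11.4 to 15.7 CPM around control tumors and a mean of 3.04 ± 0.704 CPM within them (SD, n = 4), and in TCM mice 5.81 to 7.93 CPM around and 8.01 to 12.5 CPM within (difference 2.68 ± 0.26, adjusted p = 1.49e-04, edgeR, Benjamini-Hochberg). Of the 76 tested nuclear subunits of the respiratory complexes, 4 were called for the difference, all with a higher value in TCM mice, a direction in which 0.706% of all genes were called. The others were the ATP synthase subunits Atp5g1 (1.66 ± 0.26), Atp5l (1.49 ± 0.24) and Usmg5 (1.02 ± 0.20).

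Between treatments, each of the 13 messengers was at a higher mean level around the tumor in TCM mice than in control mice, but only mt-Nd3 passed the test. Of 13 protein-coding genes 1 rose and 0 fell, where 14.1% of all genes were called, 6.75% higher and 7.36% lower. All 13 log2 differences were above 0, from 0.27 to 0.86 with a median of 0.48, while the median over all genes was 0.00. At an unadjusted p under 0.05 there were 10 of them, a threshold that many genes of the whole set passed too. mt-Nd2, with an unadjusted p of 0.0402 (edgeR quasi-likelihood test), ranked only 4119 among the 14865 genes tested. For 5 of the 13 every TCM library lay above every control library, against 9.13% of all genes, and for none every TCM library lay below (8.85% of all genes). These comparisons share libraries with those between tissues.

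The gene called was mt-Nd3, at 496, 433, 681 and 374 CPM in TCM and 298, 227, 311 and 255 CPM in control peri-tumor tissue. The groups did not overlap, and the level was 1.82-fold higher with TCM (log2 0.86 ± 0.21, adjusted p = 0.0151, edgeR, Benjamini-Hochberg). It missed the threshold without control peri-tumor library 2 (0.78, adjusted p = 0.0524, edgeR, Benjamini-Hochberg) or TCM peri-tumor library 3 (0.67, adjusted p = 0.0529). mt-Nd3 held 0.758 ± 0.0196% of mt- messenger counts in TCM peri-tumor tissue and 0.579 ± 0.0603% in control peri-tumor tissue, and in tumors the order was the opposite, 0.720 ± 0.0642% with TCM and 0.870 ± 0.0408% in control mice. The tumor effect differed by -0.76 ± 0.30 on the log2 scale between treatments, which did not pass the test (adjusted p = 0.195, edgeR, Benjamini-Hochberg).

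Both rRNA genes rose with TCM around the tumor, where 6.75% of all genes rose. mt-Rnr1 had 468, 548, 848 and 355 CPM against 353, 224, 340 and 346 CPM in control mice (log2 0.81 ± 0.23, adjusted p = 0.0315, edgeR, Benjamini-Hochberg). mt-Rnr2 had 572, 753, 1242 and 414 CPM against 393, 232, 452 and 453 CPM (log2 0.96 ± 0.29, adjusted p = 0.0405, edgeR, Benjamini-Hochberg). TCM library 3 is the highest for both and TCM library 4 is near the controls. Both calls were lost without control peri-tumor library 1, 2 or 3, TCM peri-tumor library 2 or TCM peri-tumor library 3. Without TCM library 3, which gave the lowest values, the log2 differences were 0.53 (adjusted p = 0.111, edgeR, Benjamini-Hochberg) and 0.60 (adjusted p = 0.153). For the difference of the tumor effect mt-Rnr2 was at -0.95 ± 0.41 (adjusted p = 0.245, edgeR, Benjamini-Hochberg).

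Among the 16 tested tRNA genes 1 rose around the tumor with TCM, mt-Tc, and 1 fell, mt-Tp as given above, which is near the 6.75% of all genes that rose and the 7.36% that fell. mt-Tc had 21.3, 30.7, 45.6 and 22.6 CPM in TCM and 17.8, 14.4, 19.6 and 15.9 CPM in control libraries, without overlap (log2 0.83 ± 0.26, adjusted p = 0.0443, edgeR, Benjamini-Hochberg). It was called in 13 of 28 settings, and without TCM peri-tumor library 3 its log2 difference was 0.56 (adjusted p = 0.161, edgeR, Benjamini-Hochberg). Leaving out any 1 of the 4 control peri-tumor libraries, TCM peri-tumor library 2, control tumor 1, 2 or 3, or TCM tumor 1 also ended the call, with adjusted p up to 0.119 (edgeR, Benjamini-Hochberg).

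In tumors the contrast between treatments was smaller. Of 13 protein-coding genes 1 rose and 0 fell with TCM, where 7.27% of all genes were called, 4.55% higher and 2.72% lower. The log2 differences ran from -0.58 to 0.59 with a median of 0.35, 12 of them above 0, and 4 had an unadjusted p under 0.05. The share of all genes under that unadjusted threshold was not counted. For 2 of the 13 every TCM tumor lay above every control tumor, against 8.83% of all genes, and for none below (7.04%). mt-Nd1 was the gene called, at 3929, 4382, 3859 and 3945 CPM in TCM tumors and 2600, 2439, 2393 and 3252 CPM in control tumors. The groups did not overlap, a 1.51-fold higher level (log2 0.59 ± 0.16, adjusted p = 0.0395, edgeR, Benjamini-Hochberg). The call held in 17 of 28 settings. It was lost without control tumor 1, 2 or 3, TCM tumor 1, 2 or 3, control peri-tumor library 3 or TCM peri-tumor library 1, with log2 differences from 0.57 to 0.64 and adjusted p up to 0.105 (edgeR, Benjamini-Hochberg). It was also lost without the 3 libraries low in mt-Atp6 that are described below (0.57, adjusted p = 0.181, edgeR, Benjamini-Hochberg). The rRNA genes were at 0.34 (mt-Rnr1) and 0.02 (mt-Rnr2, with either sign among the alternatives) and were not called.

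**Figure D4:**
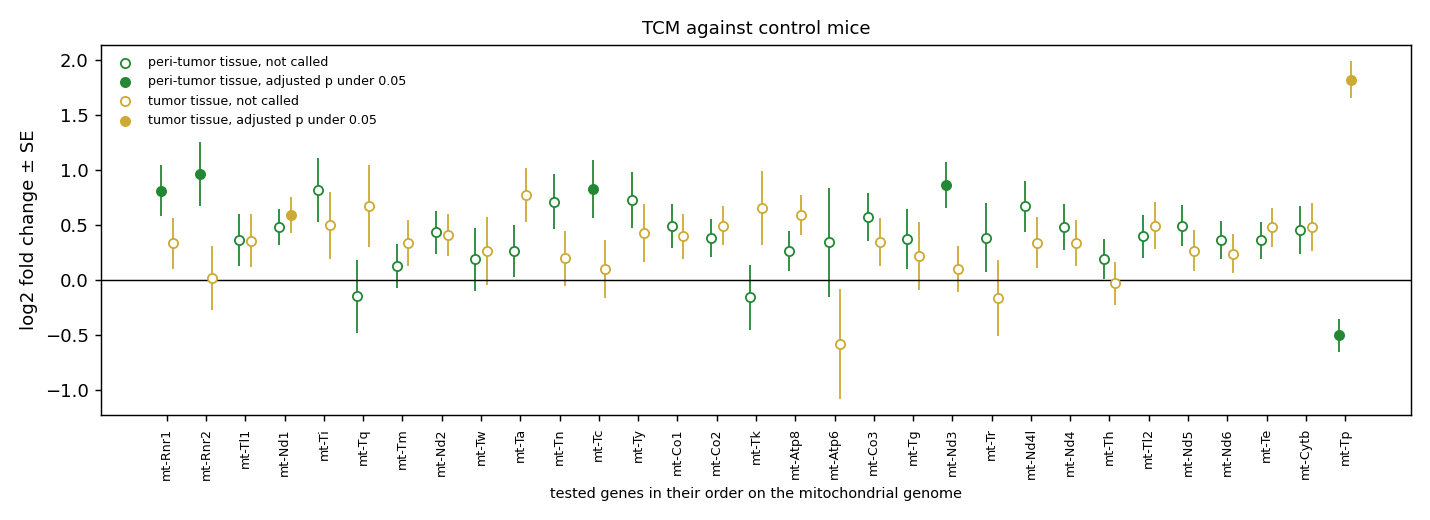
Log2 fold change, TCM over control mice, with its standard error for the 31 tested genes in genome order, in peri-tumor and in tumor tissue. Filled points have an adjusted p under 0.05. Most points lie above 0, few are filled, and mt-Tp is at 1.82 in tumors and -0.50 around them.

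The tumor effect on protein-coding genes did not pass the test of a difference between treatments for any gene: 0 of 13 were called by edgeR. Only mt-Nd3 had an unadjusted p under 0.05, and the share of all genes under that threshold was not counted. DESeq2 and limma-voom called 0 as well, and 1.11% of all genes were called. The SE of these differences was 0.23 to 0.70 on the log2 scale.

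mt-Atp6 was low in 3 libraries of TCM mice. They had 10965 (TCM peri-tumor library 4), 10684 (TCM tumor 2) and 6138 (TCM tumor 3) counts, or 701, 662 and 442 CPM, where the other 5 TCM libraries had 1564 to 5933 CPM. Its neighbours did not share this. The ratio of mt-Atp6 to mt-Co3 counts, the gene that follows it, was 0.232 to 0.247 in these 3 libraries and 0.995 to 1.18 in the other 13. The ratio to mt-Atp8 was 1.57 to 1.86 against 6.51 to 9.42. The nuclear copy Gm10925, whose sequence opens with the same bases as printed above, had 49035, 47497 and 28816 counts in the 3 libraries. The ratio of mt-Atp6 to Gm10925 was therefore 0.213 to 0.225 in these and 0.899 to 0.954 in the others, while Gm10925 relative to mt-Atp8 was 7.35 to 8.31 and 7.18 to 10.1. The sources used here do not say how reads that match both were placed or divided, and the part of this in the low values was not tested.

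**Figure D5:**
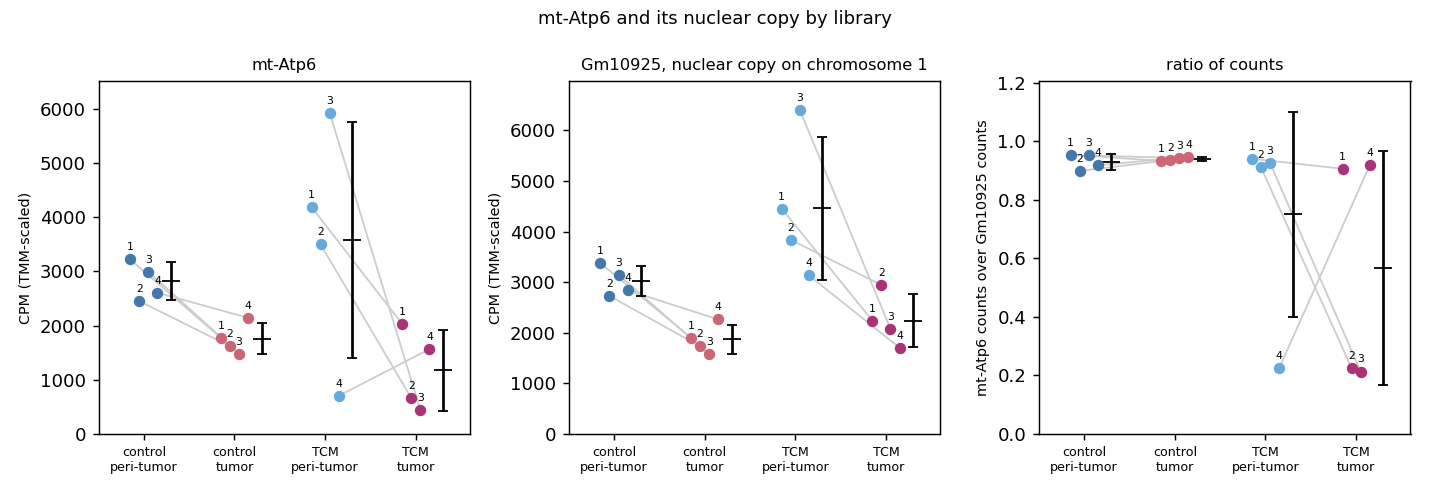
CPM of mt-Atp6 and of its nuclear copy Gm10925, and the ratio of their counts, by library (points with mouse numbers, grey lines joining the tissues of a mouse, black marks for mean and SD of 4). The ratio lies between 0.899 and 0.954 in 13 libraries and between 0.213 and 0.225 in 3 libraries of TCM mice, in which Gm10925 is not low.

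Those libraries touch every result on mt-Atp6. As counted, it fell by 1.61 ± 0.51 on the log2 scale in TCM tumors (adjusted p = 0.0228, edgeR, Benjamini-Hochberg), the largest fall of a protein-coding gene. The call was lost without TCM peri-tumor library 1 or 3 or without TCM tumor 2 or 3, and with the mouse as a block (-1.57, adjusted p = 0.0971, edgeR, Benjamini-Hochberg). With the copy's counts added it was -1.24 (adjusted p = 0.00264, edgeR, Benjamini-Hochberg), and without the 3 libraries -1.34. Between treatments in tumors mt-Atp6 was at -0.58 ± 0.50 as counted (adjusted p = 0.504, edgeR, Benjamini-Hochberg), at -0.08 with the copy added and at 0.04 without the 3 libraries.

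For the other copies the counts went with those of their mt- gene. The ratio of the mt- gene to its copy had the range 0.859 to 0.965 for mt-Nd3 over the 16 libraries and 5.94 to 6.90 for mt-Co1, whose copy covers only part of the gene. The 7 copies together held 1.32 ± 0.0962%, 0.821 ± 0.167%, 1.77 ± 0.358% and 1.01 ± 0.239% of counts in control peri-tumor, control tumor, TCM peri-tumor and TCM tumor tissue. Added to the mt- genes they gave shares of 6.06%, 3.62%, 7.92% and 4.45%. The tumor means were then 0.598 and 0.562 times the peri-tumor means, and with each copy added to its gene 11 and 12 protein-coding genes were called in control and TCM tumors, as without. Reads from the copied stretch of mt-Nd4, mt-Nd4l, mt-Co3, mt-Atp6 and mt-Co2 cannot be told apart from those of the copy by sequence, and reads of mt-Nd3 and mt-Co1 only where they cover the differing bases printed above.

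The nuclear partners of the mitochondrial subunits were lower in tumors too. Of 76 tested nuclear subunits of complexes I to IV and ATP synthase, 0 rose and 68 fell in control tumors (median log2 -0.70), and 1 rose and 50 fell in TCM tumors (median -0.48), against 21.2% and 15.6% of all genes that fell. In complex I it was 31 and 23 of 36, in complex II, which has no mitochondrial gene, 4 and 4 of 4, in complex III 8 and 5 of 9, in complex IV 11 and 7 of 12, and in ATP synthase 14 and 11 of 15. Sdhb, the iron-sulfur subunit of complex II, fell by 1.06 ± 0.10 and 0.89 ± 0.10 on the log2 scale. With TCM, 8 of the 76 rose and 3 fell around the tumor, and 18 rose and 0 fell in tumors (median 0.32). Over all genes 6.75% rose and 7.36% fell around the tumor, and 4.55% rose and 2.72% fell in tumors.

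Genes that copy and handle mitochondrial RNA were called too, in smaller shares. Of 21 tested genes of mitochondrial DNA transcription and replication, 1 rose and 7 fell in control tumors (median log2 -0.15), and 0 rose and 8 fell in TCM tumors (median -0.33), where 21.2% and 15.6% of all genes fell. These background shares hold for all counts of lower genes in the following lists. Polg2, the accessory subunit of the mitochondrial DNA polymerase, fell by 1.07 ± 0.22 and 1.13 ± 0.21, and Mterf3, a repressor of mitochondrial transcription, by 0.52 ± 0.16 and 0.82 ± 0.16. Twnk, the replicative helicase, fell by 0.65 ± 0.11 in control tumors and was at -0.11 ± 0.11 in TCM tumors, and the difference of 0.54 ± 0.16 did not pass the test (adjusted p = 0.0905, edgeR, Benjamini-Hochberg). Of 33 genes of mitochondrial RNA processing and stability, 0 rose and 11 fell in control tumors, and 0 rose and 12 fell in TCM tumors. They include Hsd17b10, a subunit of the nuclease complex that cuts tRNA 5′ ends (falls of 0.85 and 0.98), Fastkd1 (1.24 and 1.15) and Grsf1, an RNA granule protein that binds mitochondrial RNA (0.49 and 0.70). Grsf1 rose by 0.45 ± 0.09 around the tumor with TCM (adjusted p = 0.00583, edgeR, Benjamini-Hochberg). No gene of these lists was called between TCM and control tumors or for the difference.

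On the side of translation, 43 of 78 mitochondrial ribosomal protein genes fell and 2 rose in control tumors, and 30 fell and 1 rose in TCM tumors. Among 19 mitochondrial tRNA synthetases, which load amino acids on tRNAs, 5 fell and 1 rose in control tumors, near the 21.2% of all genes that fell, and 5 fell and 0 rose in TCM tumors (15.6% of all genes fell). Nars2, the asparagine enzyme, fell by 1.20 ± 0.12 and 1.18 ± 0.12 on the log2 scale. Around the tumor 5 of the 19 rose with TCM and 0 fell, where 6.75% of all genes rose. Of 14 translation factors 8 and 7 fell and 0 rose, with Taco1, an activator of mt-Co1 translation, at -1.01 ± 0.15 and -0.93 ± 0.15. Of 18 genes of mitochondrial content and import 10 and 8 fell and 0 rose. Citrate synthase (Cs), an enzyme commonly used to gauge mitochondrial content, fell by 0.49 ± 0.12 and 0.39 ± 0.12.

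Of 12 regulators of mitochondrial biogenesis 4 rose and 2 fell in control tumors, and 2 rose and 3 fell in TCM tumors. Sirt3, a mitochondrial deacetylase, fell by 1.99 ± 0.14 and 1.25 ± 0.13. Of 10 mitophagy genes 1 rose and 5 fell in control tumors, and 1 rose and 2 fell in TCM tumors. The counts of falls, for biogenesis in both treatments and for mitophagy in TCM tumors, are near the 21.2% and 15.6% of all genes that fell. The rises are to be read against the 22% (control) and 17.3% (TCM) of all genes that rose. Across these lists the falls in tumors were thus most frequent among the nuclear subunits of the complexes themselves, 68 of 76 in control mice.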

How the data were processed

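RNA of 16 mouse liver libraries was measured by RNA sequencing, and the labels' protocols name a mirVana total RNA extraction and a stranded mRNA library kit. The deposited table holds the authors' raw counts per Ensembl gene, and per the file headers each library also has a file of FPKM values. The submitters' processing notes name builds mm9 and mm10, while aligner and counter are not given. Symbols and positions came from GENCODE M21 (GRCm38), which matched 54723 of 54838 IDs, and the FPKM imply the annotated lengths of the mt- genes to within 0.0501%.

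Genes passing filterByExpr (minimum count 10) were tested, 14865 in all, with edgeR 4.0.16 in R 4.3.3: TMM factors, a mean per group, the quasi-likelihood F test over all 16 libraries (12 residual degrees of freedom) and Benjamini-Hochberg adjustment, called at an adjusted p of 0.05. DESeq2 1.42.0 and limma 3.58.1 (voom with sample weights) were alternatives, besides other scalings, filters, blocks and libraries left out. The scripts were tested on simulated counts. Animal codes pair the tissues of each mouse. The paired libraries' deviations from their group means correlated at 0.043 to 0.235, and 7 of 8 peri-tumor libraries correlated best with their own tumor.

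All protein-coding and rRNA genes, tRNA genes that averaged 1 CPM or more in some group, nuclear copies, and up to 4 genes of each list with the lowest p and at least 5 CPM could be named. The nuclear copies and the 3 libraries low in mt-Atp6 were picked after seeing the data. The members, lists and markers were chosen with earlier results of these data known.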

Additional observations from a re-analysis of the deposited data

Results flagged for a closer look

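Within groups of 4 libraries, a value was singled out where its distance to the nearest other library was a larger part of the group's range than Dixon's 95% critical value allows. Of 160 group levels, 14 met this, and chance alone flags about 5% of groups. The levels come from the same libraries and are not independent, so the 14 cannot be weighed against that 5%. The tumor of control mouse 4 was singled out as the highest of the control tumors for the protein-coding share (3.51% of counts), mt-Nd2 (2419 CPM), mt-Nd4 (2571 CPM), mt-Nd4l (476 CPM), mt-Tl1 (7.04 CPM) and the nuclear copies Gm28439 (1036 CPM) and Gm10222 (501 CPM). TCM tumor 2 was the highest TCM tumor for mt-Nd1 (4382 CPM), mt-Tn (21.6 CPM), mt-Tc (24.2 CPM) and mt-Ty (13.5 CPM). Single values were the highest for mt-Co1 in control peri-tumor library 1 (20957 CPM) and for mt-Th in control tumor 2 (2.49 CPM), and the lowest for mt-Rnr1 in control peri-tumor library 2 (224 CPM).

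The tumor effect on mt-Tp differed between treatments by 2.32 on the log2 scale (adjusted p = 1.49e-04 for the interaction, edgeR, Benjamini-Hochberg). All 4 control tumors were below all control peri-tumor libraries, and the TCM tissues overlapped.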

How the results depend on the processing

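The number of protein-coding mt- genes called between tumor and peri-tumor tissue was 11 in control mice (10 to 12 over the alternatives) and 12 in TCM mice (11 to 13), and 0 were called for the difference of these effects in each alternative. Between treatments the numbers depended on the processing. Around the tumor 1 gene was called, against 6 by DESeq2, 4 by limma-voom, 4 without both libraries of control mouse 4, 2 without the 3 libraries low in mt-Atp6, and 0 to 2 with 1 library left out (0 without control peri-tumor library 2 or TCM peri-tumor library 3, and 2 without control tumor 4 or TCM tumor 2). In tumors 1 was called, against 3 by DESeq2, 4 by limma-voom, 0 without a filter, 3 without control mouse 4, 0 without the 3 libraries and 0 to 2 with 1 library left out. With the mouse as a block, 11 genes were called in either treatment and 0 for the difference; mt-Atp6 lost its call in TCM mice as given above, mt-Ty gained one in control mice (log2 -0.65, adjusted p = 0.0265, edgeR, Benjamini-Hochberg), and no other call between tissues changed. Among tRNA genes, calls in 28 settings were 26 for mt-Tw and 12 for mt-Ty in control mice, 20 for mt-Tw and 25 for mt-Tn in TCM mice, and 5 and 2 for mt-Tl1, which is not called in the reported fit. A block on the replicate number, which pairs no animals between treatments, gave 1 gene around the tumor and 0 in tumors.

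The mt- share (control peri-tumor, control tumor, TCM peri-tumor, TCM tumor) was 5.68%, 3.70%, 7.39% and 4.59% without the 10 nuclear genes of highest count, 11.8%, 7.67%, 14.3% and 9.19% of the summed FPKM, and 6.06%, 3.62%, 7.92% and 4.45% with nuclear copies added. With 1 library left out it had the ranges 4.57% to 4.81%, 2.53% to 2.92%, 5.71% to 6.57% and 3.18% to 3.63%.

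Signs turned for few log2 differences, all of them uncalled. mt-Tp in TCM mice was at 0.019 with scaling by library total only. mt-Rnr1 in control mice had the range -0.054 to 0.187 with 1 library left out. mt-Atp6 between treatments was at -0.161 around the tumor by limma-voom, with a range of -0.011 to 0.688 with 1 library left out, and at 0.044 in tumors without the 3 libraries. mt-Rnr2 between treatments in tumors was at -0.042 by limma-voom, -0.047 by library total only, -0.00047 with only the groups compared, -0.226 without the 3 libraries, and -0.091 to 0.179 with 1 library left out. The cause was not tested. Low counts limit the rarest tRNA genes, 1 to 5 counts where untested and 3 to 23 for the tested mt-Tk, mt-Tq, mt-Tg and mt-Tr.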

Other observations

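Some mt- genes outside the comparisons above carried few reads. mt-Tv, mt-Ts1, mt-Td and mt-Tt had 1 to 5 counts per library. In control peri-tumor tissue mt-Ts1 had 3.45 FPKM, mt-Tv 2.78, mt-Tt 2.36 and mt-Td 2.04 FPKM. Of 12 nuclear genes that share 50-base words with mt- genes and have counts, 5 shared less than 50% of their words and were not added to any mt- gene.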
